A study of Saccharomyces cerevisiae with 12 samples.

Results

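The small-subunit ribosomal protein genes (RPS genes) of budding yeast encode the proteins of the small ribosomal subunit, and they were examined here for SUMO, a small protein (Smt3 in yeast) that is attached to other proteins. The members were all genes of the R64 annotation named RPS followed by a number and an optional A or B, with 2 of these, RPS22A and RPS28A, left out. This gave 54 members among 6002 nuclear protein-coding genes. They form 22 A/B pairs of duplicated genes and 8 single-copy genes (among them RPS2, RPS3, RPS12, RPS13, RPS15, RPS20 and RPS31), and RPS22B and RPS28B stand without a partner. A member was said to have a SUMO peak in a list when a peak summit, the position of highest enrichment, lay between 800 bp upstream and 100 bp downstream of its start codon. These choices used annotation and position only, not the height of any peak.

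The peaks came from SUMO ChIP-seq, in which chromatin was precipitated with an antibody against Smt3 and sequenced beside its own input. There were 6 precipitated libraries in 3 groups of 2: strain W303a (wild type, WT) grown at 30 °C without treatment, the ubc9-6 strain grown in the same way, and W303a moved to 37 °C for 12 min (heat shock). All cultures were in exponential growth in synthetic complete medium. The ubc9-6 strain carries a repeat of a mutant UBC9 allele at the UBC9 locus, which lowers but does not abolish the activity of Ubc9, the only SUMO-conjugating enzyme of yeast. The deposited labels number the replicates without saying whether they were separate cultures, and the study describes the untreated ones as independent replicates. Where cultures were not separate, p-values measure only the spread between these libraries. Each list holds the peaks of 1 library, with the fold enrichment over input at the summit.

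Ribosomal protein genes (RPGs) are among the most strongly transcribed genes of growing yeast. Most are bound upstream of their core promoters by Rap1, a DNA-binding protein that recruits the activators Fhl1, Ifh1 and Sfp1, whereas a few depend on Abf1 in place of Rap1. Their transcription falls together when cells are stressed, and Rap1 is itself known to be sumoylated.

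The labels of 4 lists are in doubt. Among 32 heat-shock genes (searched from 500 bp upstream to 200 bp downstream of the start codon), 7 and 4 had a SUMO peak in the WT lists, 13 and 15 in the lists labelled ubc9-6, and none in either list labelled heat shock. Over all 6002 genes and the same window, 8.85% and 9.76% had a peak in the WT lists, 7.10% and 8.11% under the ubc9-6 label, and 2.70% and 3.27% under the heat-shock label. The absence from the latter 2 lists thus stands beside a low share of all genes, while the heat-shock genes had peaks more often under the ubc9-6 label (40.6% and 46.9%) than in WT (21.9% and 12.5%). HSP104, a disaggregase gene that is switched on by heat, had a peak of 1.96-fold and 2.28-fold in the lists labelled ubc9-6 and in no other list. The naming of the deposited lists, whose letters the labels do not explain, raises the same doubt. These values go against the labels, and whether the ubc9-6 and heat-shock lists were exchanged was not tested. The groups are therefore called "labelled ubc9-6" and "labelled heat shock" throughout, and each direction given for them rests on labels that may be exchanged.

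The 6 lists held 714 and 842 peaks (WT replicates 1 and 2), 600 and 709 (labelled ubc9-6) and 302 and 319 (labelled heat shock). Peaks within 250 bp of a tRNA gene, which are the other large class, had a median fold of 8.17 and 11.3 in WT, against 5.11 and 6.03 where the label was ubc9-6 and 5.15 and 7.56 where it was heat shock. None of the RPS summits lay that close to a tRNA gene in any list. Read depth is not part of the lists, but the number of fragments at a summit could be worked back from its fold and p-value, and 99.0% of the 3486 peaks gave a whole number within 0.05. At the members' summits the median number of fragments was 1289 and 2577.5 in WT and 920 and 1381 under the ubc9-6 label. Under the heat-shock label it was 254 and 218, over only the 1 and 11 members with a peak there. The background at nuclear peaks, worked back in the same way, had a 5th percentile of 117 and 124 fragments in WT. It was 125 and 140 under the ubc9-6 label and 114 and 115 under the heat-shock label. The lowest fold of any peak was 1.23 and 1.22, 1.21 and 1.19, and 1.05 and 1.08 in the same order. A member missing from a list is not shown to lack SUMO, since its enrichment may lie below what the library could show or its summit outside the window. When any overlap of a peak with the window was counted, 54 and 53 members had a peak in WT and 51 in each list labelled ubc9-6.

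The promoter sequences that carry the contrasts described below are shown first. Each is 151 bases of the sacCer3 (R64) genome from RefSeq, written 5′ to 3′ in the direction of the gene. RPS20, a single-copy gene that the study also probed by ChIP-qPCR, and both copies of 4 of the 5 pairs with the largest WT difference are centred on the mean WT summit. Capitals mark the Rap1 core in either of the forms ACCCNNACA and ATCCNNACA.
RPS20 (chrVIII:75092-75242, plus strand): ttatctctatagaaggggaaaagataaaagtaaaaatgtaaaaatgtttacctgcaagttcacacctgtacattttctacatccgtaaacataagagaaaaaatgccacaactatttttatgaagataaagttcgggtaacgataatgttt
RPS0B (chrXII:241754-241904, plus strand): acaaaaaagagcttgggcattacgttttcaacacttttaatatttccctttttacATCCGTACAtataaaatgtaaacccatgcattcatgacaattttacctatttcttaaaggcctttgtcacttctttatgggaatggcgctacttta
RPS0A (chrVII:920025-920175, plus strand): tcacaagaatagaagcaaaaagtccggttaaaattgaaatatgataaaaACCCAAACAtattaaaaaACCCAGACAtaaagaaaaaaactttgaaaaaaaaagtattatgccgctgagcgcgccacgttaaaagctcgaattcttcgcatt
RPS9B (chrII:604218-604368, plus strand): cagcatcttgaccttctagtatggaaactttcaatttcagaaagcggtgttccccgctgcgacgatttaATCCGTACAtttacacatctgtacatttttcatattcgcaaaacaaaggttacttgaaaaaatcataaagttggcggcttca
RPS9A (chrXVI:404628-404778, plus strand): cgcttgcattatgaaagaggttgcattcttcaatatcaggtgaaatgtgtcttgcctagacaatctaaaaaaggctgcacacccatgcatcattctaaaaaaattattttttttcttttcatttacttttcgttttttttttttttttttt
RPS21B (chrX:157541-157691, minus strand): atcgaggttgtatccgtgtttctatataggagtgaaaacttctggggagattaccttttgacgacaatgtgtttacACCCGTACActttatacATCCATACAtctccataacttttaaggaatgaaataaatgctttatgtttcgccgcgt
RPS21A (chrXI:551380-551530, plus strand): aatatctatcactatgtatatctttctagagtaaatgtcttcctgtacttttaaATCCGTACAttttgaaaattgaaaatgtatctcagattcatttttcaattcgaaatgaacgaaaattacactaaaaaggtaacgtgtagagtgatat
RPS14B (chrX:73512-73662, plus strand): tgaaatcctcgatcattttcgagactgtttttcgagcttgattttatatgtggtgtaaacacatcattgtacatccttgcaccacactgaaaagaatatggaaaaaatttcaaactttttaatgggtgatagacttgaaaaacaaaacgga
RPS14A (chrIII:178390-178540, minus strand): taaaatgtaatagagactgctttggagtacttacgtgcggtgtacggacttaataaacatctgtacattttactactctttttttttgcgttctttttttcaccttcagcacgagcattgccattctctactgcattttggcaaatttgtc

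In the following stretches the capitals of RPS28B and RPS22B mark a match to the Abf1 consensus beside their weak summits, and RPS25B, which had no peak, is shown around the median summit position of the members and holds no Rap1 core.
RPS28B (chrXII:672936-673086, plus strand): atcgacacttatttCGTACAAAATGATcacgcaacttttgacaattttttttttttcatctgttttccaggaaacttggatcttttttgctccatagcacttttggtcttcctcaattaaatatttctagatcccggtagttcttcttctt
RPS22B (chrXII:855677-855827, plus strand): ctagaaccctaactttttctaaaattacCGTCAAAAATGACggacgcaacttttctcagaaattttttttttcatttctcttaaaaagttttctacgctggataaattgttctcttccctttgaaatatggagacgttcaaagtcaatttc
RPS25B (chrXII:796168-796318, minus strand): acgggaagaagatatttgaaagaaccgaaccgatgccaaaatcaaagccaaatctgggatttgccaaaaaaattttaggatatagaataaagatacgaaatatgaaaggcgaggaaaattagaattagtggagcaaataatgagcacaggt

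In untreated WT cells, nearly every RPS gene had a SUMO peak. There were 53 members with a peak in WT replicate 1 and 52 in replicate 2 (52.5 ± 0.71, SD, n = 2), and 52 of 54 had it in both, or 96.3%, against 10.9% of all 6002 genes. The genes of the large-subunit proteins (RPL genes) behaved alike, with 69 of 76 in both lists. The median fold of the members was 10.6 in replicate 1 and 20.6 in replicate 2, with ranges of 1.58 to 24.2 and 1.85 to 44.0. The RPL medians were 10.32 and 19.98, so that the ratio of the RPS to the RPL median was 1.03 in both lists. Replicate 2 was higher than replicate 1 for 52 of 52 members, by 1.17 to 2.19 times with a median of 1.90, and absolute folds therefore carry a replicate difference of this size. The order of the members was nearly the same in both (Pearson's r = 0.99 and Spearman's rho = 0.99 over 52 members, given as a description, since the points share their libraries).

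**Figure D1:**
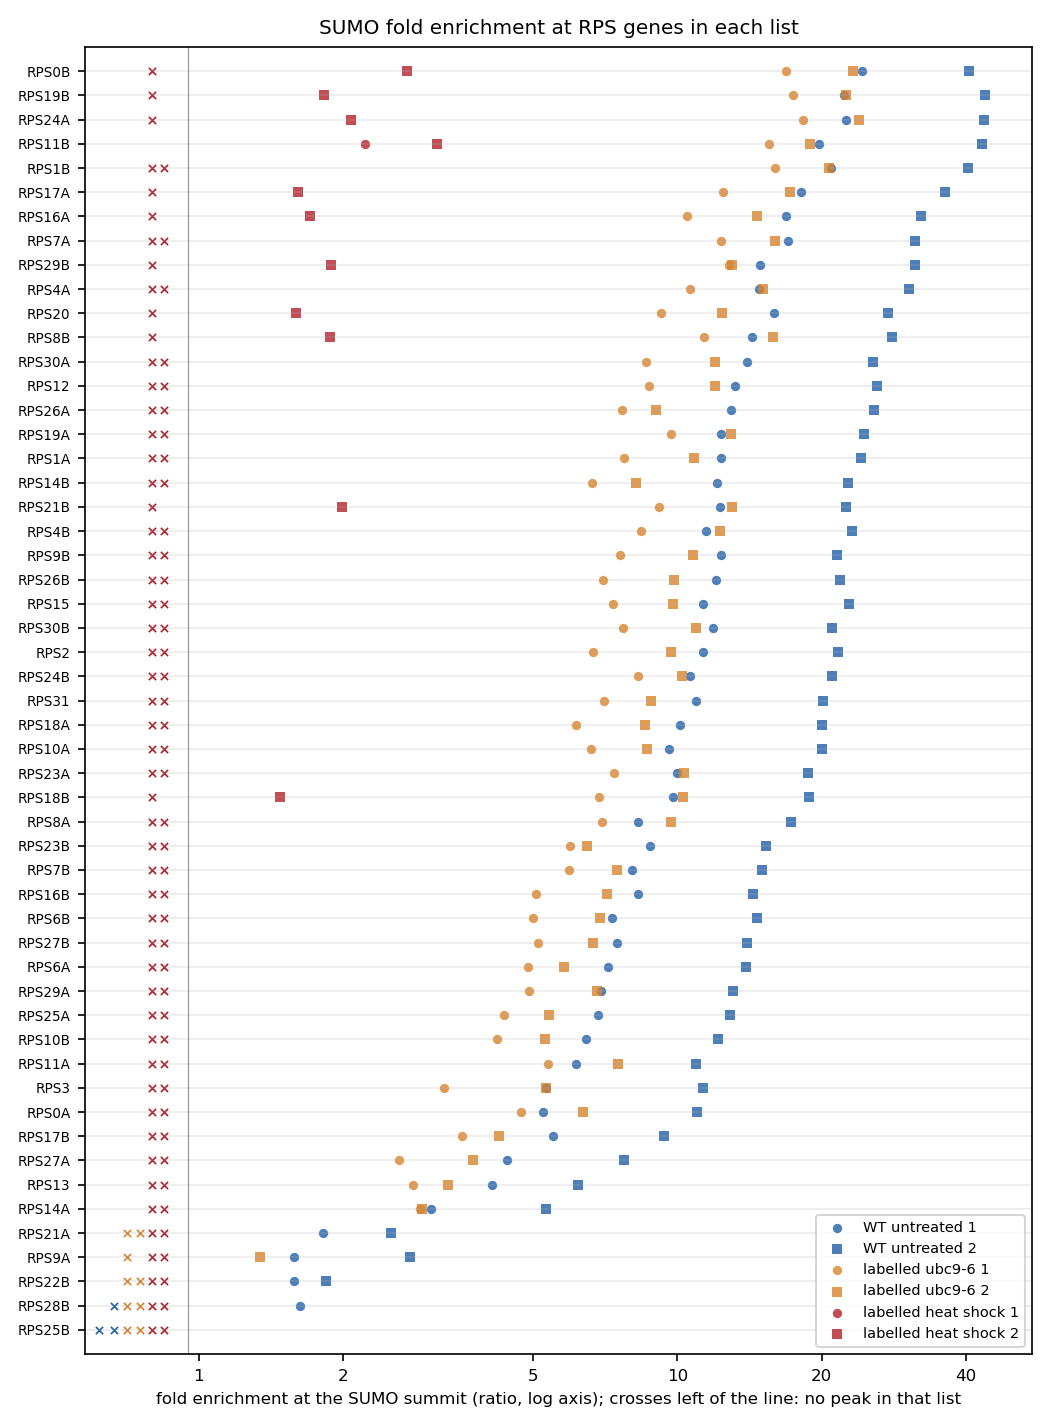
SUMO fold enrichment over input (x axis, ratio on a log scale) of 53 RPS genes (rows, ordered by WT level), with a point for each list that had a peak and a cross at the left for each list that had none. The second WT list lies to the right of the first at every gene found in both, and the 12 points of the lists labelled heat shock lie between 1.48 and 3.14.

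Members ranked high within their lists. The median member stood above 85.7% of the peaks of WT replicate 1 and 91.2% of those of replicate 2, and 12 and 18 of the 50 best-ranked peaks belonged to members. The 5 highest members were RPS0B, RPS19B, RPS24A, RPS11B and RPS1B. RPS0B, encoding a protein of the subunit's platform side needed for its maturation, had 24.2-fold and 40.6-fold enrichment. RPS19B, for a protein of the head, had 22.3-fold and 44.0-fold. RPS24A, for a protein of the body, had 22.5-fold and 43.6-fold. The others of this group were RPS11B with 19.8-fold and 43.2-fold and RPS1B with 20.9-fold and 40.4-fold.

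At the other end, 7 members had weak peaks or none. RPS13 had 4.10-fold and 6.20-fold and RPS14A 3.06-fold and 5.30-fold. RPS21A had 1.82-fold and 2.52-fold, RPS9A 1.58-fold and 2.76-fold, and RPS22B 1.58-fold and 1.85-fold. RPS28B, whose protein is known to control the decay of its own mRNA, had a peak of 1.63-fold in replicate 1 only, with its summit 62 bp upstream of the start codon. RPS25B had no peak in any of the 6 lists, and the nearest WT summits lay 672 and 660 bp downstream of its start codon. Its paralog RPS25A had 6.83-fold and 12.9-fold.

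The 8 single-copy genes all had a peak in both WT lists, with median folds of 11.1 and 20.9. RPS20, for a protein of the head, was highest with 15.9-fold and 27.5-fold. RPS12, for a protein of the beak of the head, followed with 13.2-fold and 26.1-fold. RPS2, for a protein at the mRNA entry side, had 11.3-fold and 21.6-fold, RPS15, for a protein of the head near the decoding centre, 11.3-fold and 22.9-fold, and RPS31, whose product is made as a fusion with ubiquitin, 11.0-fold and 20.2-fold. These 3 differed from one another by less than the replicates of each. RPS3, for a protein at the mRNA entry, had 5.32-fold and 11.3-fold. RPS13 was lowest. The RPS15 summit also fell within the window of RPP2A, a gene of the ribosomal stalk.

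Medians were close between genes for different places in the subunit. The 21 genes for proteins of the head had median folds of 9.96 and 20.1, and the 33 for the body and platform 11.3 and 21.0, a gap smaller than that between replicates. The median was 9.88 and 19.4 for the 36 genes with an intron and 11.3 and 22.3 for the 18 without. It was 11.3 and 21.3 for the 31 genes whose upstream neighbour is divergent and 8.88 and 18.3 for the 23 whose neighbour lies in tandem.

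The A and B copies of a pair encode nearly identical proteins, yet the SUMO enrichment at their promoters often differed. Both copies had a WT peak in both replicates in 21 of 22 pairs. The A copy was higher in both replicates in 10 pairs and the B copy in 11. The higher copy exceeded the lower by a median of 1.80 times, from 1.04 times in RPS6 to 7.79 times in RPS9, and by more than 2 times in 10 pairs. The difference between copies within a list was larger than its SD over the replicates (n = 2) in 21 of 21 pairs, and that SD had a median of 0.07 and a maximum of 0.29 on the log2 scale. An SD of 2 values is a weak measure and leaves out counting error, so it does not show that every pair differs. In WT replicate 1 the A and B summits held 841 and 858 fragments at RPS6, and 1192 and 1151 at RPS18. The longest identical stretch between the summit regions (301 bp) of any pair was 14 bp, with a median of 9 bp.

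The largest difference was at RPS9, for a protein near the mRNA entry, where RPS9B had 12.3-fold and 21.5-fold and RPS9A 1.58-fold and 2.76-fold (A minus B, −2.96 ± 0.002 on the log2 scale, SD, n = 2). At RPS21 the B copy had 12.2-fold and 22.4-fold and the A copy 1.82-fold and 2.52-fold (−2.95 ± 0.29). At RPS0 the copies differed by −2.05 ± 0.23, with RPS0A at 5.24-fold and 11.0-fold. In each of these pairs the copies did not overlap over the WT replicates. At RPS14, for a protein of the platform, RPS14B had 12.1-fold and 22.8-fold, and the difference was −2.04 ± 0.08. The pairs were chosen for the size of this difference, so their values are a description.

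**Figure D2:**
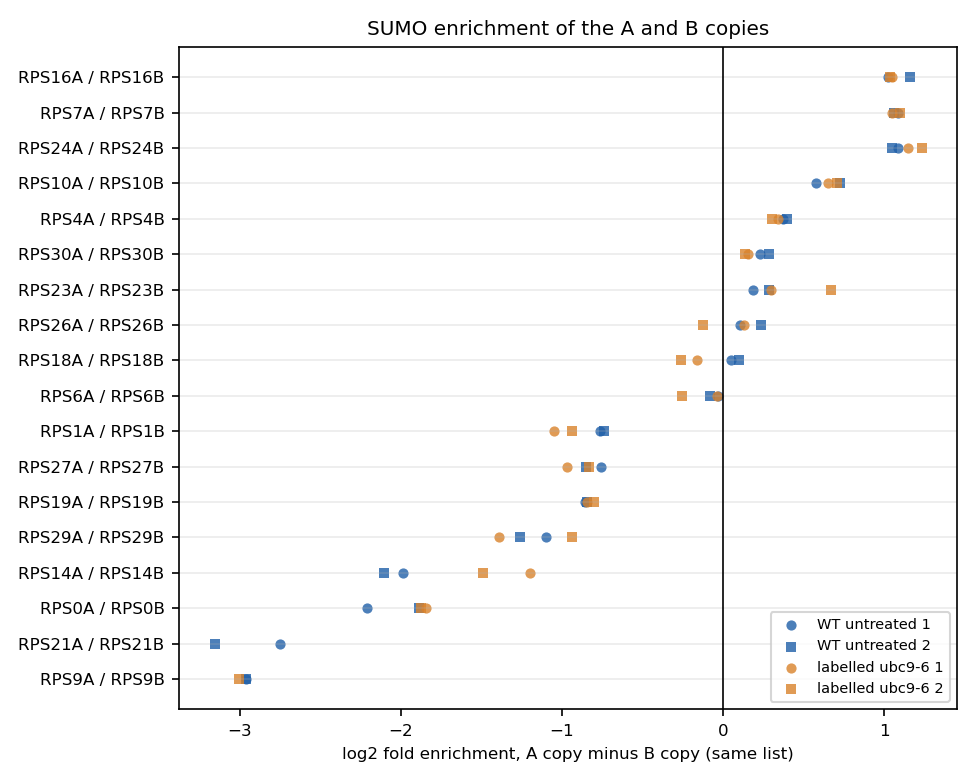
Difference in log2 fold enrichment between the A and B copy of a pair within a list (x axis), for 18 of the pairs with both copies in the WT lists, with blue for WT and orange for the lists labelled ubc9-6. The pairs drawn range from 7.79 times higher in the B copy (RPS9) to 2.13 times higher in the A copy (RPS16) in WT, and the points of a pair mostly lie close together.

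SUMO lay well upstream of the coding sequence. The median summit was 344 bp upstream of the start codon in WT replicate 1 and 351.5 bp in replicate 2. For each member the summits of the replicates nearly coincided, with a median distance of 3.5 bp, a maximum of 50 bp (RPS13), and 41 of 52 members within 10 bp. The mean WT summit lay more than 500 bp upstream in 8 members: RPS29A (775 bp), RPS8B (755.5 bp), RPS26A (733.5 bp), RPS8A, RPS26B, RPS29B, RPS22B and RPS25A (550.5 bp). None of these is a single-copy gene, but only 8 of the 54 members are single-copy. The single-copy genes had their summits at a median of 267.25 bp upstream. Paralogs differed in position by a median of 89.5 bp, from 2 bp in RPS30 to 227 bp in RPS27, and 5 of 21 pairs lay within 50 bp.

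Some summits can be assigned to more than the member. For 20 of 53 members in WT replicate 1 another start codon was closer to the summit, and the members left when each summit went only to its nearest start codon numbered 33 and 32 in WT, 30 and 31 under the ubc9-6 label, and 1 and 7 under the heat-shock label. The summits of RPS16A and RPS16B were shared with RPL13B and RPL13A, which lie divergently to them, and could not be told apart from those of the partner gene.

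**Figure D3:**
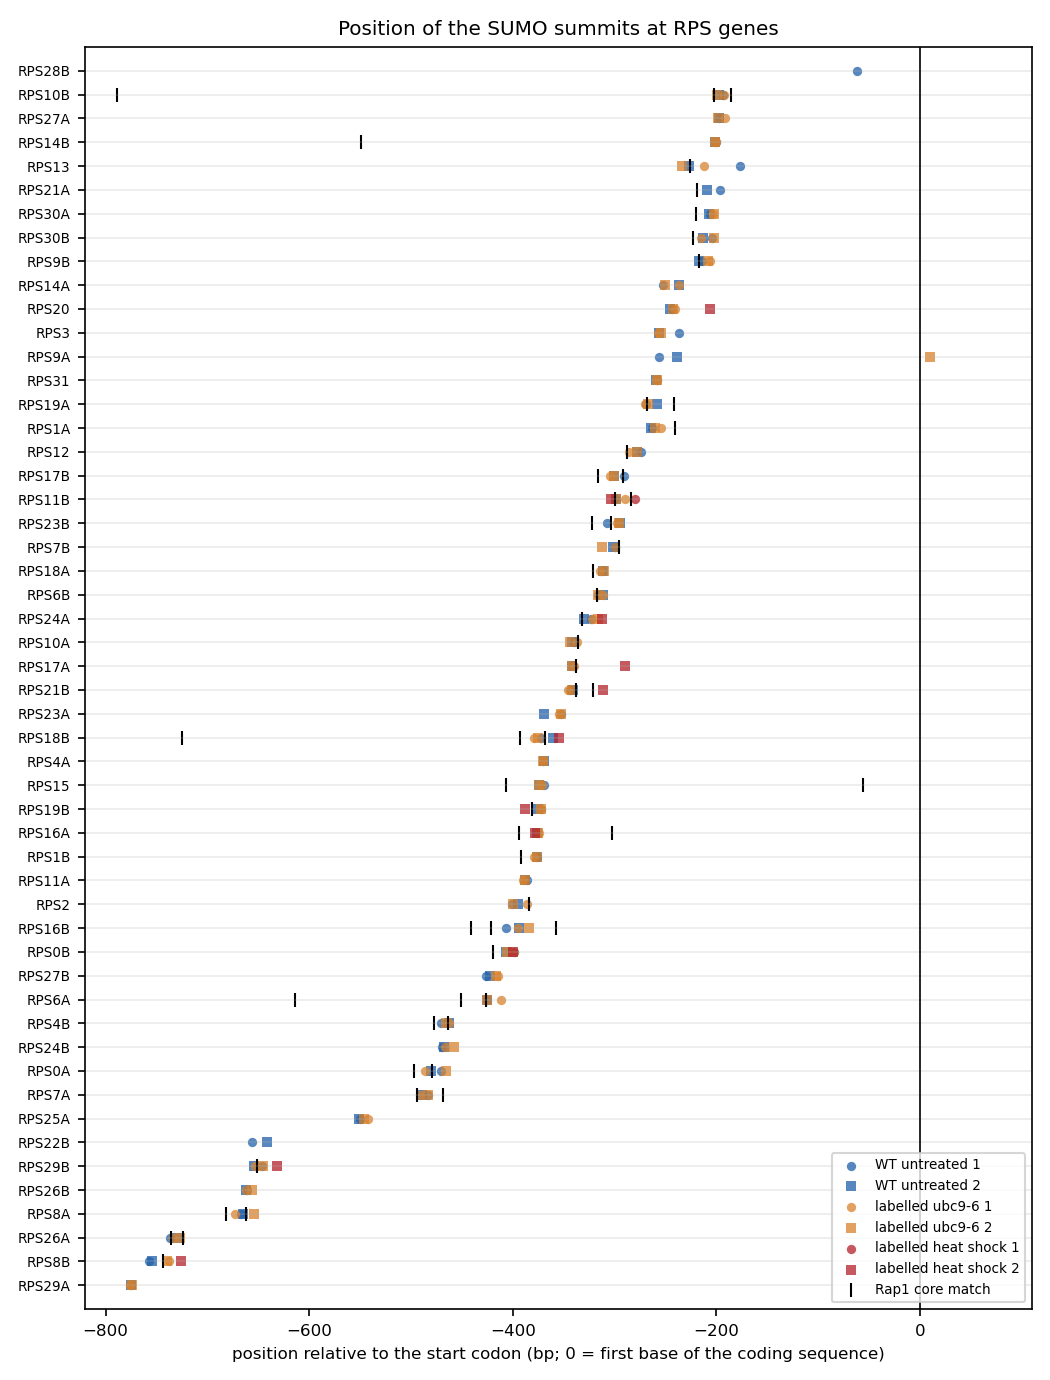
Position of the SUMO summit relative to the start codon (x axis, bp, negative values upstream) for RPS genes with a peak (rows, ordered by position), with a point for each list and vertical ticks for the Rap1 core in either form. The points of a gene mostly coincide across lists, 8 genes lie beyond 500 bp upstream, and the point of RPS9A at 10 bp downstream is from the second list labelled ubc9-6.

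The DNA under the summits often held the Rap1 core. Within 50 bp of the WT summit, ACCCNNACA on either strand was found in 21 of 53 members (39.6%), against 1.28% of 6001 promoters taken at the same distance (344 bp upstream), 52.1% of 71 RPL summits, 5.02% of 458 other summits of WT replicate 2 and 0.379% of 264 summits near tRNA genes. Matches sat at a median of 6 bp from the summit, within 20 bp in 18 members, and 21 of 25 matches ran in the direction of the gene. Counting ATCCNNACA also, a form chosen after the sequences were seen, gave 36 members (67.9%). The share was 2.48% of promoters, 77.5% of RPL summits and 7.64% of other summits of WT replicate 2. There were 51 matches in members, of which 46 ran with the gene, at a median distance of 5.5 bp. In the whole window of 901 bp the exact core was found in 21 of 54 members (38.9%, against 8.67% of 5997 genes), and each of those already had it at the summit. Either form was found in that window in 37 of 54 members (68.5%, against 18.9% of genes). These are matches of letters, and binding was not measured.

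SUMO level varied widely both with and without the core. The median over members of the mean WT fold was 15.6 with the exact core and 14.9 without it. With either form it was 9.86 in the 16 members without a match that had a peak in both WT lists, 16.8 in 22 with a single match and 12.7 in 14 with more. RPS20, among the higher members, holds neither form in the stretch shown above, while RPS21A, among the lowest, holds ATCCGTACA. RPS9B and RPS9A differ in this respect, with 1 match and none, but RPS0A, the weaker copy of its pair, has 2 and RPS0B 1, and neither RPS14 copy has any.

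Of the 32 members without the exact core at the summit, 15 held ATCCNNACA there: RPS0B, RPS1B, RPS6B, RPS7B, RPS9B, RPS12, RPS15, RPS17A, RPS18A, RPS18B, RPS19B, RPS21A, RPS29B, RPS30A and RPS30B. Neither form was matched without mismatch anywhere in the window of RPS3, RPS4A, RPS9A, RPS11A, RPS14A, RPS20, RPS22B, RPS23A, RPS24B, RPS25A, RPS25B, RPS26B, RPS27A, RPS27B, RPS28B, RPS29A and RPS31. RPS14B had none at its summit. This group spans the scale, from RPS4A with 14.8-fold and 30.5-fold to RPS25B without a peak. RPS24B had 10.6-fold and 21.0-fold, RPS23A 9.96-fold and 18.7-fold, and RPS27A 4.41-fold and 7.72-fold. With 1 mismatch allowed, several of this group did match the core within 50 bp of the summit, against 17.1% of promoters. These were RPS4A, RPS9A, RPS11A, RPS20, RPS23A, RPS25A, RPS27A, RPS27B and RPS29A. RPS3, RPS14A, RPS14B, RPS22B, RPS24B, RPS26B, RPS28B and RPS31 still had no match there.

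Of the other sites searched, only TATAAA lay within 50 bp of the summits, and the rest were also seldom found in promoters. The letters searched on both strands for Reb1 (TTACCCG) and Tbf1 (ACCCTAA), which share ACCC with the Rap1 core, and for Abf1 (its usual degenerate consensus) were found within 50 bp in 0 of 53 members, against 1.2%, 0.883% and 3.13% of promoters. Within 150 bp the Abf1 consensus was found in 13.2% of members and 9.18% of promoters. The absence of the first 3 sites within 50 bp thus stands beside low shares of promoters. TATAAA was found within 50 bp in 14 members (26.4%). The share was 14.1% of promoters, 18.6% of other summits of WT replicate 2 and 7.04% of RPL summits. The Abf1 consensus was present in the whole window of 8 of 54 members (14.8%, against 22.9% of genes), among them RPS22B (731 bp upstream), RPS28B (175 bp) and RPS21A (135 bp), all with weak peaks.

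Taken at its label, the comparison with the lists labelled ubc9-6 concerns the conjugating enzyme. Since the labels may be exchanged, only the lists themselves are compared. Most members kept their peak, at a lower fold. There were 49 and 50 members with a peak (49.5 ± 0.71, SD, n = 2), while 8.96% of all genes had a peak in both lists. Of the members, 49 of the 52 found in both WT lists were found in both (94.2%, against 98.6% of RPL genes and 78.2% of genes). The members lost from both lists were RPS21A and RPS22B. RPS9A was kept in replicate 2 only, at 1.34-fold with its summit 10 bp downstream of the start codon, 257.5 bp away from its WT position. The difference in the number of members, −3 per list, gave p = 0.33 in an exact two-sided permutation test, the smallest p that 2 against 2 libraries allow.

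Fold enrichment was lower in the lists labelled ubc9-6 for 49 of 49 members when replicates of the same number were set side by side. A fall was general in these lists: of 544 peak regions found in all 4 lists, 97.6% had a lower mean log2 fold than in WT. The ratio to WT ranged from 0.445 to 0.774 over members, with a median of 0.572. It was 0.685 between the lists numbered 1 and 0.485 between those numbered 2, so the size of the fall depended on the replicate. Both WT values lay above both values labelled ubc9-6 in 36 of 49 members (73.5%), against 75% of RPL genes and 83.2% of all genes found in all 4 lists. The median member fold was 7.02 and 9.73, and the difference of the log2 medians was −0.84 (p = 0.33, exact two-sided permutation test, the smallest possible). This difference was −1.32 without WT replicate 1, −0.36 without WT replicate 2 and −0.046 when each median was taken relative to the tRNA median of its list. The ratio of the RPS to the tRNA median was 1.30 and 1.82 in WT and 1.37 and 1.61 in the lists labelled ubc9-6, values that overlap.

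In limma's test on log2 fold enrichment over the 544 regions with a peak in all 4 lists, 25 of 50 member regions were lower at a Benjamini-Hochberg adjusted p of 0.05 and none was higher, against 46.1% of all regions lower. The fiftieth region is that of RPS9A, whose summit in replicate 1 lay outside the window. At an unadjusted p of 0.05, 37 member regions were lower and none higher, against 383 lower and 0 higher of all 544 regions. All 50 member regions had a negative difference, as had 531 of all 544 regions (97.6%). The member median was −0.80 on the log2 scale, and the median over all 544 regions was −0.77, which lies close to it. When each list was centred on its own median, 0 member regions and 0 of all regions were called. At an unadjusted p of 0.05, 0 member regions were then lower and 1 higher, against 24 and 63 of all 544 regions. The count rests on single libraries: it was 50 without WT replicate 1 and 0 without WT replicate 2, without labelled ubc9-6 replicate 1 or without labelled ubc9-6 replicate 2.

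Among the named members the largest falls were at RPS14B, RPS26A and RPS18A. RPS14B had 12.1-fold and 22.8-fold in WT and 6.64-fold and 8.21-fold in the lists labelled ubc9-6 (log2 difference −1.17, SE 0.35, limma adjusted p = 0.0297). RPS26A, for a protein at the mRNA exit, had 12.9-fold and 25.7-fold against 7.67-fold and 9.04-fold (−1.13, limma adjusted p = 0.0301). The groups did not overlap for either gene. RPS18A, for a protein of the head, had 10.1-fold and 20.1-fold against 6.13-fold and 8.57-fold (−0.98, limma adjusted p = 0.0415). RPS20 had 15.9-fold and 27.5-fold against 9.22-fold and 12.4-fold (−0.97, limma adjusted p = 0.0415). Each of these 4 calls was lost when the lists were centred, and only RPS14B was called lower with centred values and the replicate block (−0.39, limma adjusted p = 0.0249).

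The smallest differences were at RPS11A, RPS14A and RPS0A. RPS11A had 6.15-fold and 10.9-fold in WT and 5.35-fold and 7.52-fold in the lists labelled ubc9-6 (−0.37, limma adjusted p = 0.322). RPS14A had 3.06-fold and 5.30-fold against 2.90-fold and 2.92-fold (−0.47, limma adjusted p = 0.207), and RPS0A 5.24-fold and 11.0-fold against 4.71-fold and 6.36-fold (−0.47, limma adjusted p = 0.202). None of these passed the test, and the groups overlapped for RPS11A and RPS0A. With the replicate number as a block, RPS0A (limma adjusted p = 0.0127) and RPS14A (limma adjusted p = 0.0136) were called lower. RPS14A and RPS0A are the weaker copies of their pairs, and the copies differed less in the lists labelled ubc9-6 than in WT at RPS14 (−1.34 against −2.04 on the log2 scale) and RPS0 (−1.86 against −2.05). These pairs were reached through members chosen for small falls, and over all pairs the copies differed less in 10 of 19. The copies had the same order in all 4 lists in 17 of 19 pairs, RPS18 and RPS26 being the exceptions.

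**Figure D4:**
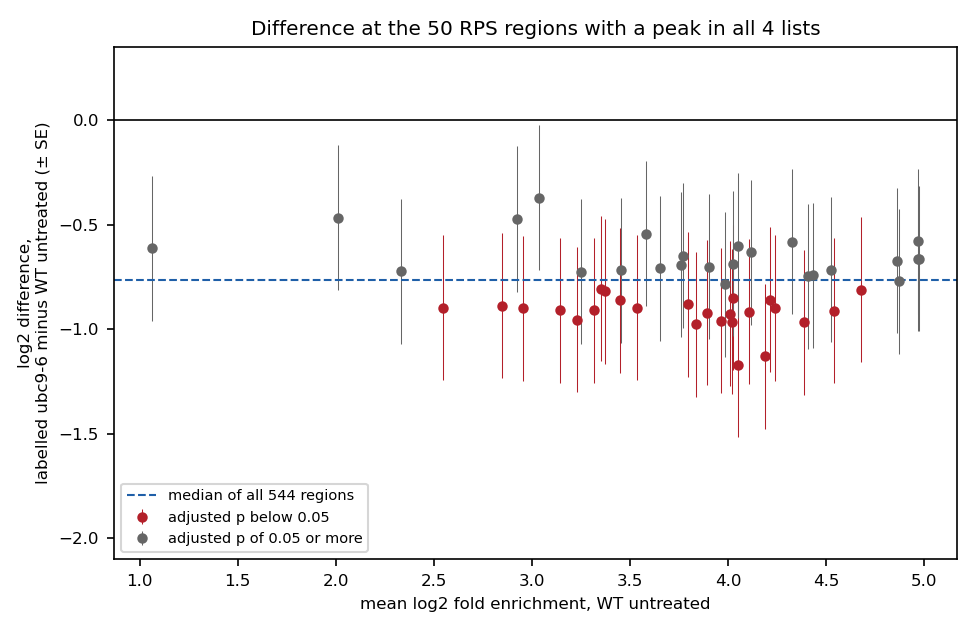
Difference in log2 fold enrichment between the lists labelled ubc9-6 and WT (y axis, bars show the SE) against the mean WT log2 fold for the 50 RPS regions with a peak in all 4 lists, in red where the limma adjusted p was below 0.05. All points lie between −1.17 and −0.37, on both sides of the dashed line at −0.77, the median of all 544 regions.

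Positions did not move with the label. The median summit was 355 and 348.5 bp upstream in the lists labelled ubc9-6, and 45 of 50 members lay within 10 bp of their WT position, with a median distance of 2.5 bp. The order of the members was also retained (Pearson's r = 0.96 between the lists numbered 1, over 49 members, and 0.98 between those numbered 2, over 50, as a description).

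The comparison with the lists labelled heat shock concerns stress only if that label holds, which is in doubt. Nearly all RPS peaks were missing from these lists. Only 1 and 11 members had a peak (6 ± 7.07, SD, n = 2), 1 of the 52 WT members in both lists (1.92%, against 32.8% of genes, and 3.7% of all 6002 genes had a peak in both) and 11 in either (21.2%, against 39.3%). RPL genes behaved alike, with 7.25% found in both lists and 18.8% in either. Most of the other genes that kept a peak lie at tRNA genes, where 205 of the 215 found in both lists and 212 of the 258 found in either had their summit. Away from tRNA genes the shares were 2.3% and 10.6% of 435 genes. The difference from WT in the number of members was −46.5 per list and in the log2 median fold −2.85 (p = 0.33 each, exact two-sided permutation test, the smallest possible). The second value sets the 1 and 11 members that were found against all WT members.

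RPS11B was the only member with a peak in both lists labelled heat shock. It had 19.8-fold and 43.2-fold in WT, 15.5-fold and 18.9-fold under the ubc9-6 label, and 2.23-fold and 3.14-fold under the heat-shock label. The last 2 values lay below all others, and the log2 difference from WT was −3.47 (SE 0.38, limma adjusted p = 5.45e-17 over 262 regions, of which 40.8% were lower). This p rests on 1 estimate of the spread shared by all regions and on 2 libraries per group. The difference was −2.77 with centred lists. No other member had a peak in all 4 lists, so RPS11B alone was tested. The other 10 members found under this label had a peak in replicate 2 only. RPS0B had 2.72-fold, RPS24A 2.08-fold, RPS21B 1.99-fold, RPS29B 1.89-fold and RPS8B 1.88-fold. RPS19B had 1.83-fold, RPS16A 1.71-fold, RPS17A 1.61-fold, RPS20 1.60-fold and RPS18B 1.48-fold. These members ranked near the bottom of the list, the best at 247 of 319 peaks.

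The members still found were mostly those with much SUMO in WT. Their places in the WT order of 52 ran from 1 to 31 with a median of 7, and 9 of 11 were among the first 15. In 10 pairs only the A or only the B copy was found and in none were both, and in 9 of these 10 it was the copy with the higher WT fold. RPS18B was the exception, with 9.79-fold and 18.8-fold against 10.1-fold and 20.1-fold for RPS18A. Because the peaks found lay near the bottom of the list, a similar fall at all members would leave much the same order. The order therefore does not show which copies kept a larger share of their SUMO. Among single-copy genes RPS20 alone was found. The remaining summits stayed close to the WT position, at a median distance of 14.5 bp and at most 51.5 bp (RPS17A). How far the missing members fell cannot be read from these lists.

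Of 13 genes for regulators and ribosome-associated factors (among them RAP1, FHL1, IFH1 and SFP1), 1 had a peak in both WT lists (7.69%), near the 10.9% of all genes. ASC1, for a protein bound to the head of the small subunit, had 1.77-fold and 2.03-fold in WT and 1.35-fold in the second list labelled ubc9-6. GCR1, an activator of glycolytic genes, had 1.38-fold and TBF1, for a factor that binds other promoters of the ribosome pathway, 1.73-fold, both in WT replicate 2 only. The other 10 had no WT peak, and none of the 13 had a peak in a list labelled heat shock.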

How the data were processed

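SUMO ChIP-seq was analysed from 6 lists of peaks, 1 per precipitated library (2 for each of 3 groups). The 6 inputs had no list and were not used here. Per the study's methods and the submitters' processing notes, the authors used Bowtie2 2.3.5 with the sacCer3 genome, then searched each library for peaks against its own input with MACS2 2.1.1.20160309 at q of 0.05, without pooling replicates. DiffBind 2.10.0 is also named there and needs reads, which were not analysed here. The deposited lists give the peak position, the summit offset, the fold enrichment over input at the summit (a ratio with a pseudocount of 1), and the p-value and q-value as −log10. Because each fold is relative to that library's own input and background, a global change in SUMO or in precipitation alters all folds of a list together.

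Members and gene lists were chosen with earlier results of these data known. Genes and sequences came from the RefSeq R64 annotation, the same assembly as sacCer3. Where several summits fell in a window, the best ranked was used. Named genes were the single-copy members, the 5 highest and 5 lowest in WT, members missing from a WT list, members present in a list labelled heat shock, the 5 pairs with the largest WT difference, the 3 largest and 3 smallest falls, members without the Rap1 core, and RPS20. Some members and pairs that this rule names are not reported here. Overlapping peaks (at least 1 bp) were merged into regions, and log2 fold enrichment was tested with limma 3.58.1 (R 4.3.3) over regions with a peak in all 4 lists of a comparison, which leaves out every region that lost its peak. In the main fits limma gave every region the same SE, because it shared 1 estimate of the spread. Values of whole lists were compared by exact permutation tests (Python 3.11.15 with numpy 2.4.6). Alternatives covered the window, the assignment of summits, minimum fold and q, equal numbers of peaks, centring, the replicate block, single libraries left out and the motif searches. Intervals on fragments were not computed, and they would cover counting error only.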

Additional observations from a re-analysis of the deposited data

How the results depend on the processing

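Of 250 alternative values for 34 results, 172 kept their direction, call or size. Taking only the best 302 peaks of every list, the difference in members between the lists labelled ubc9-6 and WT reversed to 0.5. Assigning each summit only to its nearest start codon left 32.5 members per WT list and 30.5 per list labelled ubc9-6, and a fold of 2 or more left 2 per list labelled heat shock. With 1 library left out, the members per list labelled heat shock were 1 to 11 at any fold. A window from 500 bp upstream to 200 bp downstream moved the median summit to −318.25 bp in WT and −322.75 bp in the lists labelled ubc9-6. The median ratio between paralogs was 1.80 without replicate 1 and 1.81 without replicate 2. The Rap1 core was found in 45 members with 1 mismatch (84.9%, against 17.1% of promoters and 24.5% of other summits). With the second form, chosen after seeing the data, it was found in 36 members within 50 or 150 bp (67.9%). The shares of promoters were then 2.48% and 7.3%. Within 150 bp Reb1 was found in 2 (3.77%, against 4.53% of promoters), Tbf1 in 1 (1.89%, against 2.7%), TATAAA in 22 (41.5%, against 36.3%) and Abf1 in 7 (13.2%, against 9.18%), so that the Abf1 share turned from below to above that of promoters.

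For the lists labelled ubc9-6, the 25 member regions called lower by limma became 0 with centring, 2 with a fold of 2 or more, and 0 to 50 with 1 library left out. The 251 of all regions became 0, 30 and 0 to 490. For the lists labelled heat shock, the 107 regions called lower became 27 to 138 with 1 library left out, and the single region called higher became 101 with centring and 0 to 1 with 1 library left out. The lower and higher shares thus turned from 107 and 1 to 103 and 101. Centring turned the difference of RPS0A to 0.30, of RPS14A to 0.31 and of RPS11A to 0.41. With 1 library left out, RPS0A ranged from −1.01 to 0.062 and RPS11A from −0.79 to 0.046, the upper values without WT replicate 2. The causes were not tested. Where a single library remained in a group, limma assumed that it varies like the other group.

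Replicates of different groups share a number, and nothing in the labels says that a number marks a shared day or batch. Deviations of lists with the same number correlated at 0.47 (544 regions, labelled ubc9-6) and 0.07 (262 regions, labelled heat shock). With the number as a replicate block, limma called 49 member regions and 482 of all regions lower and 1 higher for the lists labelled ubc9-6, and 196 lower and 25 higher for those labelled heat shock. With centred values and the replicate block, 1 member region was lower and 1 higher, 18 of all regions were lower and 66 higher, 97 regions were higher for the lists labelled heat shock, and RPS0A, RPS14A and RPS11A were at 0.30, 0.31 and 0.41. For the counts and medians, −3, −46.5, −0.84 and −2.85, the replicate block left the values as they were, and the exact sign-flip test of 2 pairs cannot go below p = 0.5.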
